A study of Mus musculus with 8 samples.

Results

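The genes described here make, cut or bind hyaluronan, and they were taken by symbol: the synthases *Has1*, *Has2* and *Has3*, the hyaluronidases *Hyal1* and *Hyal2*, the receptors *Cd44* and *Hmmr*, the proteoglycan *Vcan*, the link protein gene *Hapln1* and *Tnfaip6*. They are 10 of the 27179 genes counted, and 9 of them passed the filter on low counts, which kept 16658 genes. *Has2* was put on the list because it was lower in the cKO libraries, so its difference is described without a test, while the other members tested were read against all 16658 genes. RNA-seq was made from whole uteri at postnatal day 10 (PD10), as 4 control and 4 *Ezh2 Amhr2*-Cre cKO libraries, to ask which transcripts change when *Ezh2*, the histone methyltransferase of polycomb repressive complex 2, is lost. Control mice had the genotype Ezh2 f/f, with both alleles floxed and no Cre, and cKO mice had the genotype Ezh2 f/f; Acre, in which Cre is driven from *Amhr2*. *Amhr2*-Cre acts in cells of the Müllerian duct mesenchyme and their progeny, so the uterine epithelium keeps *Ezh2*, and Cre from this locus is also active in the ovary and oviduct. The labels number the samples and do not say whether uteri were pooled, so the p-values measure the spread between these libraries.

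Hyaluronan is a long, unsulfated sugar chain that synthases in the plasma membrane extrude directly into the extracellular space. Hyaluronidases cut it, receptors such as CD44 bind it at the cell surface, and versican held to it by link protein builds the hydrated pericellular matrix. In the uterus, hyaluronan and versican are components of the stromal matrix around the epithelium, the tissue from which glands bud.

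Between 25287141 and 36685807 reads per library were counted on genes, and 3 counts, the limit that a count of 0 allows, correspond to 0.0824 to 0.117 CPM, counts scaled to library size, for counting error only. The targeted gene *Ezh2* averaged 36.8 ± 4.41 CPM in cKO against 45.0 ± 8.70 CPM in control uteri (SD, n = 4 each), with overlapping libraries (edgeR adjusted p = 0.247), in counts over the whole gene and all cells of the organ. Markers of stroma, smooth muscle and epithelium were present in every library. Fat markers set 3 of the cKO libraries apart: the 10 genes summed to 102 to 114 CPM in the control libraries, 252 to 450 CPM in cKO libraries 1 to 3 and 117 CPM in cKO library 4. All 10 fat markers had counts. Of the 8 that could be tested, edgeR called 2 as higher in cKO, all 8 had an unadjusted p under 0.05, and DESeq2 called 8. The 8 NK cell markers summed to 8.76 to 14.2 CPM in the control libraries and 2.25 to 4.23 CPM in the cKO libraries, and of the 7 that could be tested edgeR called 6 as lower and DESeq2 called 7. The 7 mast cell markers summed to 36.3 to 45.9 CPM in the control libraries and 52.3 to 67.4 CPM in the cKO libraries, and of the 5 that could be tested edgeR called 0, 3 had an unadjusted p under 0.05 and DESeq2 called 1. Of the 8 stroma markers, which summed to 9476 to 12501 CPM in the control and 11430 to 14883 CPM in the cKO libraries, edgeR called *Thy1* as lower and *Col3a1* as higher, and DESeq2 called 4. The part of any of these cell types in the results that follow was not tested, and in these bulk samples fewer cells of a type and less RNA per cell cannot be told apart.

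Promoter windows are shown for the 2 members that passed the test and for *Hmmr*, whose window held more CCAAT boxes than nearly all others. The windows run from 250 bases before to 50 bases after the RefSeq start on GRCm38.p6, 5′ to 3′ on the strand of the gene, and 8 of the 10 members had one (*Has2* and *Has3* did not). The start is that of the transcript the RefSeq promoter table uses, and for *Hapln1* and *Hmmr* it lies inside the outer bound of the gene given with their values. Capitals mark the motifs searched on both strands: the CCAAT box (CCAAT or ATTGG), the GC box (GGGCGG or CCGCCC), the CHR element (TTTGAA or TTCAAA) and the AP-1 site (TGACTCA or TGAGTCA). The *Tnfaip6* window is chr2:52037863-52038162 on the plus strand, the *Hapln1* window chr13:89540386-89540685 on the plus strand, and the *Hmmr* window chr11:40733388-40733687 on the minus strand.
Tnfaip6: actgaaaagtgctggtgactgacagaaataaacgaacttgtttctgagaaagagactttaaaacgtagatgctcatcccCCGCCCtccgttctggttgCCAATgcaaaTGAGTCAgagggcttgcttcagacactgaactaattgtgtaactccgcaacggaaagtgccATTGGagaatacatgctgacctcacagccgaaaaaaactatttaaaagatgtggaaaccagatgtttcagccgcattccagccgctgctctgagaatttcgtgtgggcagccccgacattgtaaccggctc
Hapln1: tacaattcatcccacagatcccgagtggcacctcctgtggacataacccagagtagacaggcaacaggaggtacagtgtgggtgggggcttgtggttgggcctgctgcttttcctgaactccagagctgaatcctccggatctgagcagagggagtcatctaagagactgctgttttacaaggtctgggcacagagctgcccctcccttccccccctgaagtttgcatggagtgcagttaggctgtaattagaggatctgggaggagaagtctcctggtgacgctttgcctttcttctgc
Hmmr: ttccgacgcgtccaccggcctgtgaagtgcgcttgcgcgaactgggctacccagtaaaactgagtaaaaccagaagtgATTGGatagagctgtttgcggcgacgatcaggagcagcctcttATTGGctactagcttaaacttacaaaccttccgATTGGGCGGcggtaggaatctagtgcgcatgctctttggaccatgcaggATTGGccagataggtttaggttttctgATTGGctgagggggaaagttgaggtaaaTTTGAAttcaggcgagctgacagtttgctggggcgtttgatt
The *Tnfaip6* window held 2 CCAAT boxes, 1 GC box, 1 AP-1 site and 12 CG dinucleotides. The *Hapln1* window held none of the 4 motifs and 3 CG dinucleotides, against a median of 7 over 32851 promoter windows. In the *Hmmr* window, 5 CCAAT boxes, 1 GC box that shares bases with one of them, 1 CHR element and 16 CG dinucleotides were found. Of all windows, 37.4% held a CCAAT box, 35.7% a GC box, 17.9% a CHR element and 5.20% an AP-1 site, and 0.271% held at least 5 CCAAT boxes. These matches describe the letters of the windows and show no binding.

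Among the synthases, *Has2* was the most abundant per length in control uteri and *Has3* in cKO uteri. *Has2* (Entrez 15117, GRCm38 chromosome 15 from 56665627 to 56694546), the main synthase of embryonic mesenchyme, was at 19.3, 16.3, 16.9 and 15.5 CPM in control libraries 1 to 4 and at 6.41, 4.82, 5.98 and 5.81 CPM in cKO libraries 1 to 4. Each cKO library was below each control library. Control uteri averaged 17.0 ± 1.63 CPM and cKO uteri 5.75 ± 0.672 CPM (SD, n = 4 each), a ratio of 0.339 or 66.1% less. The log2 fold change was -1.56. Over 19 other ways of processing the counts it was between -1.62 and -1.48. These values chose the gene and support nothing here.

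*Has3* (Entrez 15118, chromosome 8 from 106870242 to 106882902), a synthase found in many epithelia, was at 11.0, 12.8, 10.7 and 13.8 CPM in control and 14.0, 14.5, 13.5 and 11.2 CPM in cKO libraries. The groups overlapped, with means of 12.1 ± 1.47 CPM (SD, n = 4) and 13.3 ± 1.46 CPM (SD, n = 4). Its log2 fold change of 0.14, with a 95% interval from -0.11 to 0.38, did not pass edgeR's quasi-likelihood test (adjusted p = 0.512). Of its 6380 exonic bases, 352 (5.52%) also lie in *Chtf8* on the opposite strand, and reads there are uncertain, since the strand setting of the counting is not given in the sources used here. *Has1* (Entrez 15116, chromosome 17 from 17833691 to 17855589), the third synthase, did not pass the filter on low counts. It had 4, 1, 1 and 5 counts in control and 9, 5, 9 and 2 counts in cKO libraries, so the groups overlapped near the limit of detection, and a fit without the filter gave an adjusted p of 0.315.

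**Figure D1:**
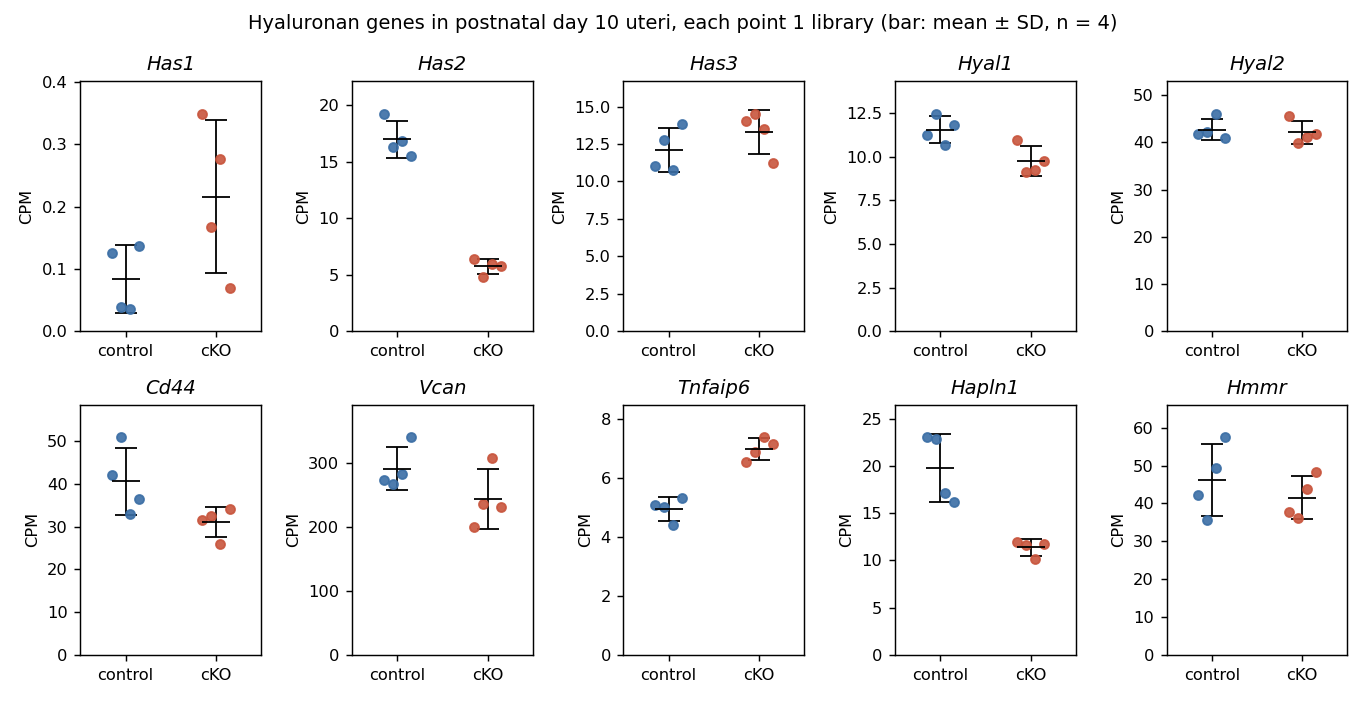
Level of each of the 10 members in every library, in CPM on a linear axis that starts at 0 in each panel, with 4 control and 4 cKO libraries as points and the mean ± SD as bars. The *Has2*, *Hapln1* and *Tnfaip6* panels show groups that do not overlap, and *Has2* was chosen for this difference.

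To compare levels between genes, CPM were divided by the exonic length in kb. On this scale the synthases summed to 5.92 ± 0.267 CPM per kb (SD, n = 4) in control and 3.49 ± 0.270 CPM per kb (SD, n = 4) in cKO uteri. *Has2* made up 67.6 ± 4.39% of the sum (SD, n = 4, from 62.4% to 72.2%) in control and 39.0 ± 4.43% (SD, n = 4, from 33.0% to 43.6%) in cKO uteri, which describes the same difference that chose it. *Has3* made up 32.1 ± 4.35% and 59.7 ± 4.37% (SD, n = 4 each). *Has1* stayed the smallest share, at 0.312 ± 0.198% in control and 1.33 ± 0.688% in cKO uteri (SD, n = 4 each). Taken from counts without the length, the *Has2* share was 58.3% and 30.0%, so the order of *Has2* and *Has3* turned between the genotypes on both scales.

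**Figure D2:**
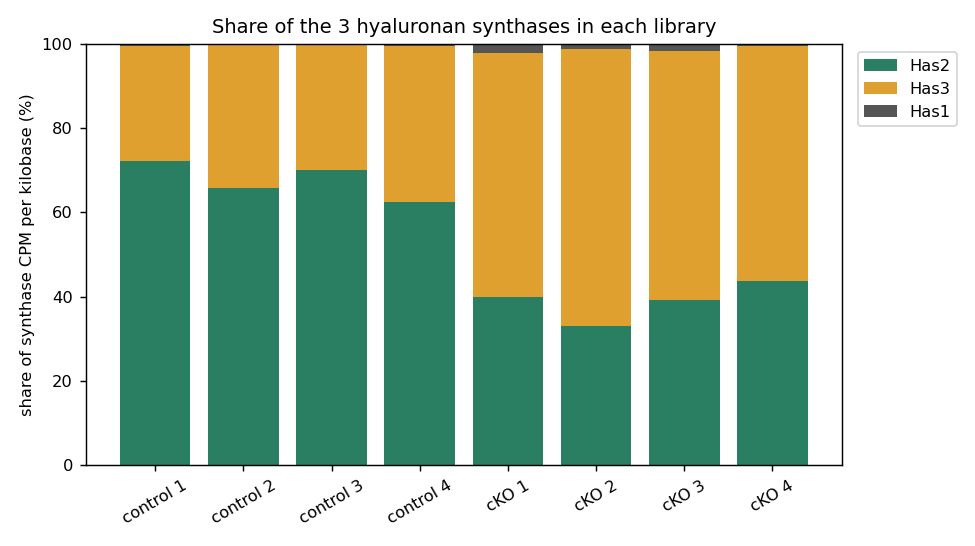
Share of the summed synthase level, in percent of CPM per kb, that *Has1*, *Has2* and *Has3* took in each of the 8 libraries. The *Has2* share was between 62.4% and 72.2% in the control libraries and between 33.0% and 43.6% in the cKO libraries.

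Neither hyaluronidase passed the test. *Hyal2* (Entrez 15587, chromosome 9 from 107567873 to 107572778), a membrane-anchored enzyme that cuts long hyaluronan into fragments, was at 41.8, 42.1, 46.1 and 40.9 CPM in control and 45.6, 39.9, 41.1 and 41.9 CPM in cKO libraries. These groups lay over each other, at 42.7 ± 2.29 and 42.1 ± 2.47 CPM (SD, n = 4 each), and the log2 fold change was -0.02 with a 95% interval from -0.16 to 0.12 (edgeR adjusted p = 0.886). *Hyal1* (Entrez 15586, chromosome 9 from 107576950 to 107581699) encodes a lysosomal enzyme that degrades fragments further and starts 4171 bases past the end of *Hyal2*. It was at 11.2, 12.5, 10.7 and 11.8 CPM in control and 11.0, 9.10, 9.21 and 9.74 CPM in cKO libraries. Only the highest cKO library reached into the control range, at means of 11.5 ± 0.768 and 9.75 ± 0.847 CPM (SD, n = 4 each). The log2 fold change was -0.24, with an unadjusted 95% interval from -0.46 to -0.03 (edgeR adjusted p = 0.172). The value is uncertain, because 1920 (50.8%) of the 3777 exonic bases of *Hyal1* also belong to *Naa80* on the same strand and 159 (4.21%) to *Hyal3*. *Naa80*, an actin acetyltransferase gene, had a log2 fold change of -0.03 (edgeR adjusted p = 0.865).

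The receptors overlapped between the genotypes. *Cd44* (Entrez 12505, chromosome 2 from 102811141 to 102901669), the main cell surface receptor for hyaluronan, was at 42.1, 50.8, 32.8 and 36.3 CPM in control and 31.5, 32.5, 25.9 and 34.0 CPM in cKO libraries. The 2 lower control libraries lay close to the upper cKO libraries. Means were 40.5 ± 7.86 and 31.0 ± 3.52 CPM (SD, n = 4 each), and the log2 fold change of -0.39 (95% interval from -0.67 to -0.10) did not pass edgeR's test (adjusted p = 0.112). DESeq2 gave *Cd44* an adjusted p of 0.0427.

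*Hmmr* (Entrez 15366, chromosome 11 from 40701388 to 40733464) encodes RHAMM, which binds hyaluronan and, inside dividing cells, the mitotic spindle. It was at 42.3, 35.6, 49.4 and 57.5 CPM in control and 37.6, 36.1, 43.9 and 48.3 CPM in cKO libraries. The cKO values lay inside the control range, at means of 46.2 ± 9.40 and 41.5 ± 5.66 CPM (SD, n = 4 each). The log2 fold change was -0.16 (95% interval from -0.47 to 0.16, edgeR adjusted p = 0.562). It was -0.034 without control 4 (edgeR adjusted p = 0.917) and -0.26 without control 2 (edgeR adjusted p = 0.233).

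Across the 8 libraries *Hmmr* moved with the sum of 15 proliferation genes, which ran from 1110 to 1742 CPM over the control and from 1264 to 1570 CPM over the cKO libraries. Pearson's r was 0.903 (exact permutation p = 0.00379) and Spearman's rho 0.810 (exact permutation p = 0.0218). No other correlation between measures was tested across all libraries, so these p-values are not adjusted. Without the 2 libraries farthest from the median of the sum, control 4 and control 2, r was 0.767 over 6 libraries (exact permutation p = 0.139), so the direction stayed and the p passed only with those libraries in. Within the 4 control libraries r was 0.997 and within the 4 cKO libraries 0.895, given as a description without a test. The control libraries stood in the same order on both measures, and cKO libraries 3 and 4 were above cKO libraries 1 and 2 on both. *Hmmr* was 2.78% to 3.35% of the proliferation sum in every library. None of the 15 proliferation genes passed edgeR's test, 0 had an unadjusted p under 0.05, and DESeq2 called 0.

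**Figure D3:**
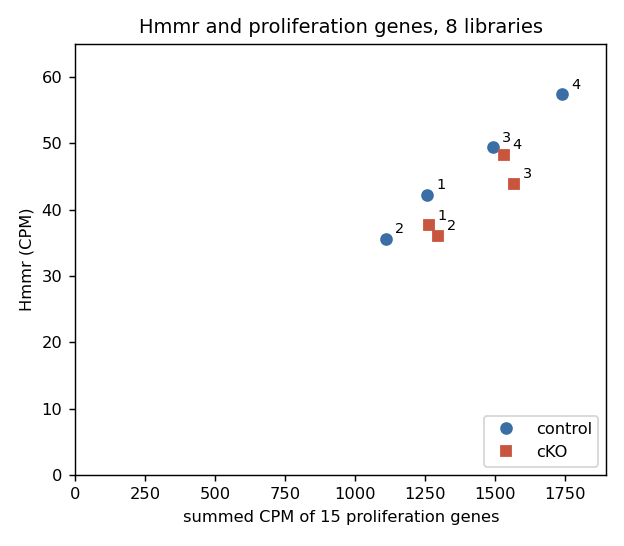
*Hmmr* in CPM (vertical axis) against the summed CPM of 15 proliferation genes (horizontal axis), 1 point for each of the 8 libraries, with control and cKO in separate colours. Control library 4 is at the upper end and control library 2 at the lower end of both axes.

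The other binding proteins held both members that passed the test. Of the 8 members tested besides *Has2*, 1 was lower in cKO uteri (*Hapln1*), 1 was higher (*Tnfaip6*) and 6 did not pass, while 5.34% of all genes tested passed, 2.71% as lower and 2.62% as higher. The same 2 members were the ones whose groups did not overlap, as was so for 12.3% of all genes, 6.43% as lower and 5.90% as higher. Neither changed by over 2-fold, as 1.30% of all genes did with an adjusted p under 0.05, of which the lower ones were 0.636% of all. The median log2 fold change of the 8 was -0.20 and that of all genes 0.00.

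*Hapln1* (Entrez 12950, chromosome 13 from 89540529 to 89611832) encodes link protein, which locks versican or aggrecan onto hyaluronan. It was at 23.0, 22.8, 17.2 and 16.2 CPM in control and 12.0, 11.6, 10.1 and 11.8 CPM in cKO libraries. The control libraries fell into a higher and a lower pair, and both pairs lay above all cKO libraries. From 19.8 ± 3.62 CPM to 11.4 ± 0.860 CPM (SD, n = 4 each), the level was 42.6% lower in cKO uteri. The log2 fold change was -0.80, with a standard error (SE) of 0.12 (edgeR adjusted p = 0.00262). The exact permutation p was 0.029, the smallest that 4 against 4 allows. *Hapln1* passed in each of the 8 fits that left out 1 library. With the fat score as a covariate its log2 fold change was -0.79 (edgeR adjusted p = 0.136), and with cKO library 4 as the lone cKO library it was -0.74, a value without a replicate.

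*Tnfaip6* (Entrez 21930, chromosome 2 from 52038113 to 52056681) encodes TSG-6, a secreted protein that transfers heavy chains of inter-alpha-inhibitor onto hyaluronan. It was at 5.08, 4.99, 4.39 and 5.33 CPM in control and 6.52, 6.86, 7.36 and 7.15 CPM in cKO libraries. All cKO libraries were above all control libraries, and the spread within each group was small. Means of 4.95 ± 0.398 and 6.97 ± 0.363 CPM (SD, n = 4 each) gave a 1.41-fold higher level, a log2 fold change of 0.49 (SE 0.11, edgeR adjusted p = 0.0258, exact permutation p = 0.029). Its adjusted p in edgeR was 0.0747 without control 1, 0.0720 without control 3, 0.0642 without cKO 2 and 0.0717 without cKO 3. With the fat score as a covariate the log2 fold change was 0.54 (edgeR adjusted p = 0.267), and with cKO library 4 as the lone cKO library it was also 0.54, a value without a replicate.

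*Vcan* (Entrez 13003, chromosome 13 from 89655309 to 89743027), the large proteoglycan that link protein ties to hyaluronan, lies 43476 bases past the end of *Hapln1*. It was at 274, 268, 282 and 340 CPM in control and 199, 237, 309 and 231 CPM in cKO libraries. One cKO library lay within the control range and the other 3 below it. Means were 291 ± 33.3 and 244 ± 46.2 CPM (SD, n = 4 each), and the log2 fold change of -0.26 (95% interval from -0.53 to 0.02) did not pass edgeR's test (adjusted p = 0.268). It was -0.39 without cKO 3 (edgeR adjusted p = 0.0514) and -0.17 without cKO 1 (edgeR adjusted p = 0.486).

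Per kb of exon, *Vcan* was the highest member in control uteri at 20.1 CPM per kb, followed by *Hyal2* at 13.0, *Hmmr* at 8.50 and *Cd44* at 5.98 CPM per kb. *Has2* was next at 4.01 CPM per kb, then *Hapln1* at 3.36, *Hyal1* at 3.06, *Tnfaip6* at 2.89 and *Has3* at 1.89 CPM per kb, with *Has1* last. *Hmmr* and *Cd44* overlapped in their control libraries, as did each neighbouring pair from *Has2* to *Tnfaip6*, so these neighbours do not differ beyond their spread. In cKO uteri *Vcan* at 16.9 and *Hyal2* at 12.8 CPM per kb overlapped, *Tnfaip6* at 4.08 and *Cd44* at 4.57 CPM per kb overlapped too, and *Hapln1* at 1.93 and *Has2* at 1.36 CPM per kb stood below *Has3* at 2.09 CPM per kb, with *Hapln1* and *Has3* overlapping. *Has2* was 5th of the 10 members in control and 9th in cKO uteri.

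**Figure D4:**
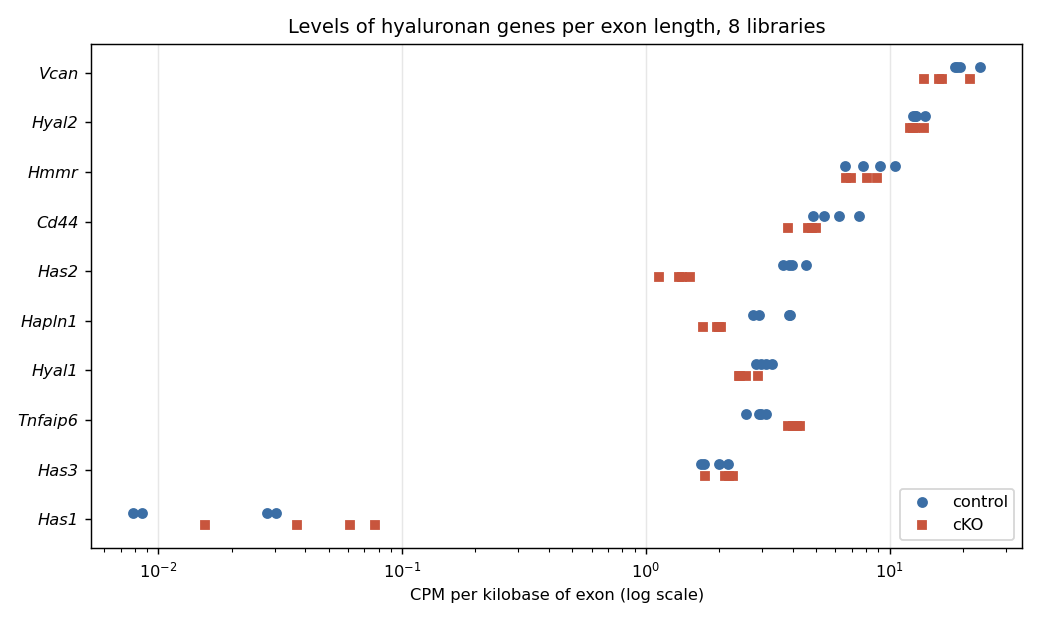
Level per length of the 10 members, in CPM per kb of exon on a logarithmic axis, in control and cKO libraries, with every library as a point. By group mean, *Vcan* is highest in both genotypes and *Has1* lowest, and *Has2* is 5th in control and 9th in cKO uteri. The cKO libraries of *Vcan* and *Hyal2* overlap.

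A further 44 genes that supply, cut, bind or decorate hyaluronan were chosen from general knowledge with results of these data known, and 33 of them were tested. Of these, 1 passed as lower (*Cemip*) and 1 as higher (*Acan*), or 6.06%, beside 5.34% of all genes. The median log2 fold change of the 33 was -0.01, in a range from -0.70 to 1.75. The groups did not overlap for 4 of the 33, *Cemip*, *Acan* and *Hapln3* among them, beside 12.3% of all genes. Besides *Cemip* and *Acan*, 8 of the 33 had an unadjusted p under 0.05 in edgeR without passing. DESeq2 called *Adamts5*, *Fbln2*, *Cemip* and *Acan*, where it called 1510 of 16332 genes in all. The share of all genes with an unadjusted p under 0.05 was not counted.

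*Cemip* encodes a hyaluronan-binding protein needed for hyaluronan breakdown in fibroblasts. It was at 47.1, 49.8, 51.3 and 57.3 CPM in control and 41.6, 41.2, 45.7 and 42.6 CPM in cKO libraries. Each cKO library was below each control library, with a log2 fold change of -0.26 (SE 0.07, edgeR adjusted p = 0.0467). The call was close to the threshold, with an adjusted p from 0.0148 to 0.697 over 19 alternatives and above 0.05 in 11 of them. Leaving out any 1 library other than control 2 took it to between 0.0505 (without cKO 4) and 0.141 (without cKO 2), and with the fat score as a covariate it was 0.531, at a log2 fold change of -0.25.

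*Acan*, the aggrecan gene, is the cartilage relative of *Vcan*. It had 2, 4, 5 and 13 counts in control and 24, 17, 22 and 14 counts in cKO libraries, which places it at 0.188 ± 0.123 and 0.667 ± 0.192 CPM (SD, n = 4 each). The groups did not overlap but came within 1 count at their nearest, and the log2 fold change was 1.75 (SE 0.43, edgeR adjusted p = 0.0331). The adjusted p in edgeR was 0.0957 without control 1, 0.0539 without control 2, 0.0791 without control 3, 0.10 without cKO 1, 0.0618 without cKO 2, 0.0784 without cKO 3 and 0.532 with the fat score as a covariate, where the log2 fold change was 1.46. The cartilage markers, *Acan* among them, summed to 8.93 to 11.1 CPM in the control libraries and 5.72 to 8.78 CPM in the cKO libraries. Most of this sum was *Sox9*, which passed as lower (log2 fold change -0.71, edgeR adjusted p = 0.0133). *Col9a1* was also lower, at -0.75, without passing (edgeR adjusted p = 0.333). *Col2a1* at 0.53 (edgeR adjusted p = 0.692) and *Comp* at 0.86 (edgeR adjusted p = 0.316) were higher without passing, each on 13 counts or fewer per library. The median log2 fold change of the 5 genes tested was 0.53.

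The remaining pathway genes did not pass. For the sugar nucleotides from which the chain is built, the median log2 fold change was -0.07 over 7 genes, with *Ugp2*, which makes UDP-glucose, at -0.11 (edgeR adjusted p = 0.287) and *Gfpt1*, which opens the hexosamine pathway, at -0.16 (edgeR adjusted p = 0.178). In the degradation list, 6 of 10 genes were tested with a median of -0.02, and *Hyal4*, *Hyal5* and *Spam1* were listed at 0 in every library. *Hexa*, a lysosomal hexosaminidase subunit gene, had a log2 fold change of -0.05 (edgeR adjusted p = 0.584) and *Cemip2* of -0.01 (edgeR adjusted p = 0.949).

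For the scavenger and lymphatic receptors, the median log2 fold change was 0.28 over 4 genes, with *Stab1* at 0.34 (edgeR adjusted p = 0.175) and *Lyve1*, the receptor of lymphatic endothelium and some macrophages, at 0.23 (edgeR adjusted p = 0.361). *Hapln3*, another link protein gene, averaged 1.02 CPM in the control and 0.687 CPM in the cKO libraries, and the groups did not overlap. Its log2 fold change was -0.56 (edgeR adjusted p = 0.194). In the heavy chain list the median was 0.25 over 5 genes, with *Itih5* at -0.08 (edgeR adjusted p = 0.683) and *Ptx3*, which crosslinks such chains, at 0.25 (edgeR adjusted p = 0.256). The versican proteases and ligands had a median of -0.03 over 8 genes, with *Fbln1* at -0.05 (edgeR adjusted p = 0.710) and *Adamts5*, which cleaves versican, at -0.34 (edgeR adjusted p = 0.0701).

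**Figure D5:**
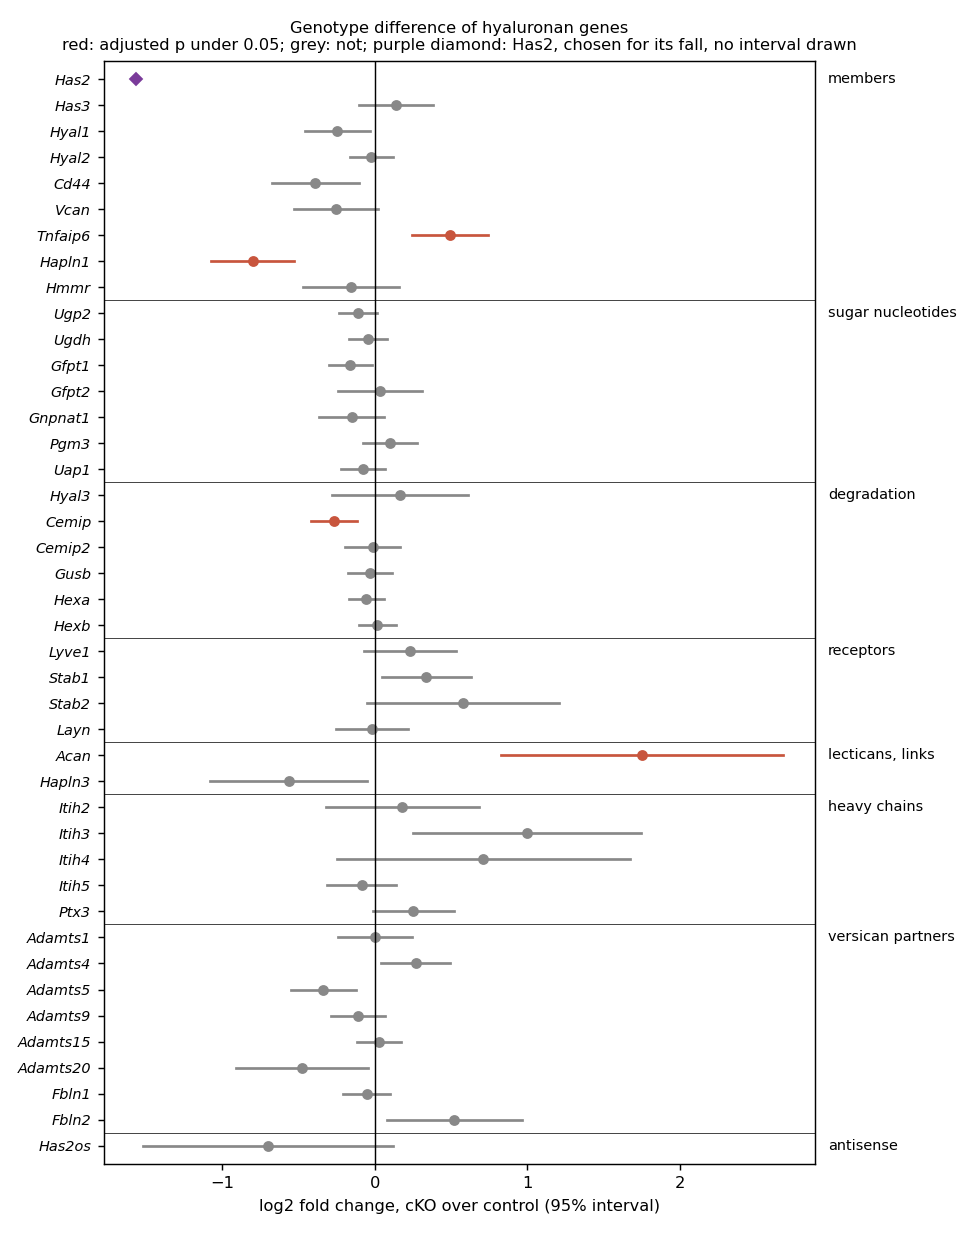
Log2 fold change of cKO over control, with 95% intervals not adjusted for the number of genes, for the members tested and the 33 pathway genes tested, grouped by role. *Hapln1*, *Tnfaip6*, *Cemip* and *Acan* are red (edgeR adjusted p under 0.05), and *Has2* is a purple diamond without an interval because it was chosen for its fall.

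Around *Has2*, 17 genes are annotated within 1 Mb and 2 could be tested, *Sntb1* and *Has2os*. *Sntb1*, a syntrophin gene, was at 16.6 ± 1.07 and 14.4 ± 0.903 CPM (SD, n = 4 each), with a log2 fold change of -0.21 (edgeR adjusted p = 0.168). *Has2os*, the antisense transcript of the locus, had 12, 10, 8 and 9 counts in control and 5, 5, 9 and 4 counts in cKO libraries, with a log2 fold change of -0.70 (edgeR adjusted p = 0.309). It shares 182 bases, or 4.30% of the *Has2* exons, on the opposite strand, and reads there cannot be assigned without the strand setting.

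By root mean square difference between gene-centred log2 CPM values over the 8 libraries, the profiles nearest to *Has2* among 14455 genes were *Stra6* at 0.214, *Ankfn1* at 0.222, *Ptpro* at 0.252, *Gna14* at 0.259 and *Slc38a5* at 0.261, where the median gene was at 0.791. *Stra6* encodes the membrane receptor through which cells take up retinol. Nearest to *Hmmr* were *Pola1* at 0.0519, *Knl1* at 0.0529, *Ect2* at 0.0542, *Kif20b* at 0.0544 and *Kpna2* at 0.0564, with the median gene at 0.261. *Pola1* encodes the catalytic subunit of DNA polymerase alpha and *Knl1* a kinetochore protein. A small distance is in part the genotype difference by which *Has2* was chosen, and these distances are given as a description.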

How the data were processed

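Polyadenylated RNA of whole uteri (TruSeq stranded mRNA libraries) was sequenced. Per the submitters' processing notes, the authors used Trimmomatic, FastQC, HISAT2 and featureCounts with GRCm38 and deposited each library's raw counts by Entrez identifier. Tool versions, the annotation release, the strand setting and the handling of multi-mapping reads are not given in the sources used here. Gene symbols came from the authors' deposited comparison table, and for *Has1* from a RefSeq table. The fold changes, F scores and p-values of that table, and deposited log2 CPM values, were not used.

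From the counts, the filter kept genes that exceeded 0.2 CPM in 4 or more libraries, as in the study's methods, and these were tested in R 4.3.3 with edgeR 4.0.16 (TMM, glmQLFit with robust = TRUE, glmQLFTest, prior count 0.125), with Benjamini-Hochberg adjustment over 16658 genes. Genes passed with an adjusted p under 0.05. The exact permutation test was two-sided on log2(CPM + 0.1). Exonic lengths and shared exonic bases come from merged GENCODE exons on GRCm38, and gene bounds and promoter windows from RefSeq. The test was checked on simulated data.

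No 2 of the 8 libraries were duplicates (chi-square per gene at least 7.44 over all 28 pairs, within and between genotypes). The alternatives were edgeR's RLE, library totals, DESeq2 1.42.0, limma-voom (limma 3.58.1), robust = FALSE, other filters, a prior count of 2, a replicate block, leaving out each library, a fat score covariate and pseudocounts of 0.5 and 1. Testing cKO library 4 alone and taking shares from counts were added after seeing the data. The members and lists were chosen with earlier results of these data known. The text names all members, pathway genes with an adjusted p under 0.05, the 2 most abundant tested genes of each pathway list, and the 5 profiles nearest to *Has2* and *Hmmr* among genes of at least 1 CPM. *Naa80*, *Chtf8*, *Hyal3* and *Sntb1* are named for their position, and *Fbln2* after its values were seen.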

Additional observations from a re-analysis of the deposited data

Results flagged for a closer look

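In 43 members and pathway genes, each with 4 control and 4 cKO libraries, 3 of 86 groups had 1 library that stood further from the rest than Dixon's 95% critical value allows for 4 libraries. Chance gives about 1 such group in 20. *Lyve1* was at 22.2 CPM in control library 2 and between 16.5 and 17.2 CPM in the other control libraries, a gap of 0.876 of the range. *Stab2*, a scavenger receptor gene of sinusoidal endothelium, was at 3.11 CPM in cKO library 1 against 1.54 to 1.77 CPM in the others, a gap of 0.851. *Adamts9*, a versican-cleaving protease gene, was at 48.1 CPM in cKO library 2 against 39.4 to 40.9 CPM, a gap of 0.833. None of the 10 members had such a library.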

How the results depend on the processing

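Of the 2 members that passed among the 8 tested, *Has2* not being one of them, *Hapln1* kept its direction in all 19 alternatives and its call in 17, and *Tnfaip6* its direction in 19 and its call in 13. The count of members past the threshold was 3 with DESeq2, where *Cd44* was added, and between 1 and 2 when each library was left out, with *Tnfaip6* lost without control 1, control 3, cKO 2 or cKO 3. With the fat score as a covariate edgeR called 0 members (2 at an unadjusted p under 0.05), and with cKO replicate 4 as the lone cKO library, assumed to vary like the controls, 0 (3 at an unadjusted p under 0.05). For the pathway genes the count of 2 became 4 with DESeq2, 1 with limma-voom, 1 with filterByExpr, and 0 with the fat score (4 at an unadjusted p under 0.05) or cKO 4 alone (1 at an unadjusted p under 0.05), and it was between 0 and 6 when each library was left out, with 6 without cKO 4. The *Cemip* call was lost in 11 of 19 alternatives and the *Acan* call in 7 of 18. Over all genes, 889 became 1510 with DESeq2, 95 with the fat score and 35 with cKO 4 alone, so few that a call lost in that unreplicated fit says nothing about a gene, and between 393 and 1773 when each library was left out. The cause of these changes was not tested. The direction turned for *Has3* with the fat score (log2 fold change -0.094) and with cKO 4 alone (-0.10), for *Hmmr* likewise (0.13 and 0.068), and for *Hyal2* without control 3 (0.017) and without cKO 2 (0.0080), in a range from -0.060 to 0.017 over the libraries left out, none of which passed the test. By counts without length, the *Has2* share was 58.3% in control and 30.0% in cKO uteri. By the exact permutation test, 2 members had a p under 0.05, and 2 to 3 under other pseudocounts and with each library left out.

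The titles share replicate numbers across genotypes, but deviations of same-numbered libraries correlated at -0.0035, 0.024, 0.113 and 0.194, not all over 0.1, so the numbers were not taken as pairs. Only replicate 4 correlated best with its own number. With a replicate block 3 members passed, *Cd44* with a log2 fold change of -0.38 among them (edgeR adjusted p = 0.0175), and 3 pathway genes, where 1240 of all 16658 genes passed against 889 without it.

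Counts from whole uteri limit what the values show: *Has1*, *Acan* and *Has2os* rest on 1 to 24 counts per library, the reads of *Hyal1* and *Naa80* are partly shared, and protein, enzyme activity and hyaluronan itself were not measured here.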
